A study of Arabidopsis thaliana with 12 samples.

Results

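The multidrug and toxic compound extrusion (MATE) genes described here are the rows of the deposited gene table whose description contains the words "MATE efflux", with EDS5 (AT4G39030) left out. The rule gave 35 of the 18884 genes in the table, and all 35 passed the filter on low counts that left 18877 genes for testing. Leaf RNA came from untreated Arabidopsis thaliana plants that were 5 weeks old, in 12 libraries, 3 for each of 4 genotypes. Plants of 3 genotypes carried the transgene pTPR1:TPR1-GFP, a GFP-tagged TPR1 under the promoter of TPR1 itself. These were TPR1-GFP sid2-1 (called the sid2-1 line), with a mutant allele of the isochorismate synthase gene ICS1 that makes most defence salicylic acid, TPR1-GFP eds1-2 (the eds1-2 line), with a mutant allele of the immune regulator EDS1, and TPR1-GFP without a further mutation. Wild-type Col-0 carried no transgene, and no non-transgenic sid2-1 or eds1-2 mutant was among the samples analysed here. The labels name no independent transgenic lines, so each genotype may rest on 1 line.

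MATE proteins are membrane carriers that move small molecules out of the cytoplasm, into the vacuole or out of the cell, in exchange for protons or other cations. In plants the family is large, and its members are known to carry flavonoids, citrate, hormones such as abscisic acid, defence compounds and foreign toxins, while the salicylic acid pathway uses EDS5 of the same family. TPR1 belongs to the TOPLESS family of corepressors, which lower transcription at genes to which DNA-binding partners bring them. The reference annotation names 4 of the 35 genes. DTX1 is annotated as a detoxifying efflux carrier for plant-derived antibiotics and other toxic compounds including cadmium, and ALF5 as a protein that protects roots from inhibitory compounds. ADS1, also called ADP1, is annotated as a putative MATE carrier that lowers disease resistance, and AT5G52050 has the synonym DTX50, for detoxification efflux carrier. The other 31 carry a locus code only, and no role is given for them.

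Library totals were 19628974 to 32018583 counts. The series describes 3 independent experiments, but no replicate number was tied to an experiment by the labels, so the fit holds no experiment term and p-values reflect no more than the spread among the 12 libraries. TPR1 had 776 to 1305 counts per 1e6 scaled counts (CPM) in the sid2-1 line, 990.2 to 1327 in the eds1-2 line, 1539 to 1748 in TPR1-GFP and 68.3 to 74.1 in Col-0, and native and tagged transcripts cannot be told apart in these counts. All 5 mesophyll markers were present, with a summed level of 49668 to 52250 CPM in the sid2-1 line, 61043 to 69973 in the eds1-2 line, 37299 to 42241 in TPR1-GFP and 70617 to 82856 in Col-0. The 4 vascular markers summed to 245 to 261, 371 to 417, 228 to 255 and 219 to 305 CPM in the same order of genotypes, and the 4 guard cell markers to 90.5 to 99.4, 76.4 to 123, 73.2 to 80.1 and 96.7 to 117 CPM. The 3 epidermis and trichome markers summed to 63.4 to 79.0 CPM in the sid2-1 line, 86.0 to 125 in the eds1-2 line, 61.5 to 81.0 in TPR1-GFP and 100.2 to 156 in Col-0. None of 4 root and none of 3 seed markers was in the table, and of 3 floral markers AG alone was, at 2.00 to 2.26 CPM in the eds1-2 line and at most 0.95 elsewhere. The mesophyll sum was lowest in TPR1-GFP and the vascular sum highest in the eds1-2 line. Single genes made up most of 2 sums, with SUC2 at a mean of 355 CPM in the eds1-2 line and ATML1 at 131 in Col-0. Of the epidermis and trichome markers, TRY averaged 5.35 CPM in the eds1-2 line and 2.01 in Col-0. ATML1 and GL2 had lower means in the eds1-2 line than in Col-0. The part of these shifts in the changes of MATE genes was not tested, and in bulk leaf RNA fewer cells of a type and less RNA per cell cannot be told apart.

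The reference (RefSeq, assembly TAIR10.1) has 55 loci with this product, 36 of them in the deposited table. Coding lengths of the 35 genes ran from 1410 to 1683 bases with a median of 1476, and the number of coding exons from 1 to 14 with a median of 7. AT4G22790, AT4G23030, ADS1 and AT5G52050 (DTX50) have 1 coding exon, and AT1G51340, AT2G21340, AT2G38330 and AT4G38380 have more than 10. Tandem arrays, taken as members at most 50000 bases apart, hold 13 of the 35. The largest spans chr2:1334270-1379130 and contains DTX1, AT2G04050, AT2G04070, AT2G04080 and AT2G04100, all on the minus strand. The other 4 are pairs of members, namely AT1G15170 with AT1G15180, AT1G33080 with AT1G33110, AT3G23550 with ALF5, and AT4G21903 with AT4G21910. Members of an array are called neighbours here, whether or not another gene lies between them. Coding sequences were 72.8 to 91.2% identical within arrays and 45.5 to 81.4% between other pairs of members. Of the 35 genes, 29 share no stretch of 50 bases with another member, and the highest shared part was 6.73% of such stretches, between AT1G15170 and AT1G15180. Reads that lie wholly in those shared stretches fit more than 1 copy, and how such reads were counted is not known here. Only the 35 members were compared with each other. The other loci with this product were left out, so arrays may hold more copies and more stretches may be shared. In addition, 7 members overlap a gene on the opposite strand by 41 to 585 bases. These are AT2G21340 (585 bases), DTX1 (297), AT1G15170 (245), AT3G23550 (69), AT5G52450 (64), AT2G38330 (42) and AT1G73700 (41). The gene that overlaps AT2G21340 averaged at most 1.80 CPM in any genotype, and the one that overlaps AT5G52450 averaged 94.5 to 143 CPM. The sources used here give no strand for the counting, so values of these 7 genes are uncertain by the reads of that overlap.

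The start regions of 7 members, all 5 of the chromosome 2 array and both of the chromosome 3 pair, are shown because these neighbours of like sequence changed in different ways between genotypes, as given further on, and they were chosen after those values had been seen. Each is the 250 bases before the annotated start in RefSeq TAIR10.1, 5′ to 3′ on the gene's own strand, which is the minus strand for all 7. Capitals mark TTGAC (or its reverse complement GTCAA), the core of the element that WRKY factors bind, and TGACG (or CGTCA), the core of the element that TGA factors bind.
DTX1 (AT2G04040), chr2:1336551-1336800: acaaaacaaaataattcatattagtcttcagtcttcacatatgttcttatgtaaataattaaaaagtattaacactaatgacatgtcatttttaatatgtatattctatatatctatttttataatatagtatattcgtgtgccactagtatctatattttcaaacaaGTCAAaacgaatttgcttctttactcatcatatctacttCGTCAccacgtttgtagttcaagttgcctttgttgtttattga
AT2G04050, chr2:1339469-1339718: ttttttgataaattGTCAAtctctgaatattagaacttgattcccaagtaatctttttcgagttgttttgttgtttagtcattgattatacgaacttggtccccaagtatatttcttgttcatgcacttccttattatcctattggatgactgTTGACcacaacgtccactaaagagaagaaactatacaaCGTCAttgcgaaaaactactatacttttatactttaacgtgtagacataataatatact
AT2G04070, chr2:1355884-1356133: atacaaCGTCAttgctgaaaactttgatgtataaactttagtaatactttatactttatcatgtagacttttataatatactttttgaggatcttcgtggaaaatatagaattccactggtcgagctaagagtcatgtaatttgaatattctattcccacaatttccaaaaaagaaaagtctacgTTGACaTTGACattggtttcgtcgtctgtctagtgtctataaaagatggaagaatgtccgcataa
AT2G04080, chr2:1359404-1359653: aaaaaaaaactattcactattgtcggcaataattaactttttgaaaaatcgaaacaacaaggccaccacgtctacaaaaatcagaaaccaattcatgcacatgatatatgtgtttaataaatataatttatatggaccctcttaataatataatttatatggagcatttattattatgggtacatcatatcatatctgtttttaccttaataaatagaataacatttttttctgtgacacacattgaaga
AT2G04100, chr2:1379131-1379380: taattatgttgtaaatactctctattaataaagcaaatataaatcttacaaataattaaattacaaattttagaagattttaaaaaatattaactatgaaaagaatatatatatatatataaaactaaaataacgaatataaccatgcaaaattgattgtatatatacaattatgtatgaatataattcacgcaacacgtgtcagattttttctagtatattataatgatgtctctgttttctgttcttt
AT3G23550, chr3:8450800-8451049: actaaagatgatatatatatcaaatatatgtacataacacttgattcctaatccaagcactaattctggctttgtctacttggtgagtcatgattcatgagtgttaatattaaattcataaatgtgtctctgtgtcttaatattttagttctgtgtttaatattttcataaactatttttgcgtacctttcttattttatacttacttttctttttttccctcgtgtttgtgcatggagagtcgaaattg
ALF5 (AT3G23560), chr3:8456709-8456958: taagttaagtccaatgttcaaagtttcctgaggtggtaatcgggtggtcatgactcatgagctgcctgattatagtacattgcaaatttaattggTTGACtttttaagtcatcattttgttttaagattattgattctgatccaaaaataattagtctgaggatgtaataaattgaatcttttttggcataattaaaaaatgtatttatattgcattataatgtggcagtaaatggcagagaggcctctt
DTX1 has 1 TTGAC and 1 TGACG, AT2G04050 and AT2G04070 each have 2 TTGAC and 1 TGACG, and ALF5 has 1 TTGAC. AT2G04080, AT2G04100 and AT3G23550 have neither in this window, and of these AT2G04080 was the least variable gene of the array while AT2G04100 and AT3G23550 were called in all 6 comparisons of genotypes. TTGAC on either strand was in this window of 17 of the 35 members (48.6%) and in 44.9% of 27443 annotated genes. For TGACG the shares were 7 of 35 members (20%) and 18.6% of all genes. A match only describes the letters. AT2G34360 and AT1G15170 have partial gene models, so that their annotated start is uncertain.

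Summed over the 35 members, MATE transcripts stood at 884 ± 41.4 CPM in the sid2-1 line, 778 ± 77.2 in the eds1-2 line, 820 ± 75.3 in TPR1-GFP and 583 ± 23.1 in Col-0 (SD, n = 3 libraries each). All 9 transgenic libraries, at 716 to 931 CPM, lay above the 3 Col-0 libraries at 557 to 602 CPM. Per kilobase of exon, the highest level was that of AT3G23550 in the sid2-1 line (46.2 CPM per kilobase, with AT1G47530 at 45.0), AT1G47530 in the eds1-2 line (45.9, with AT4G21910 at 31.6), AT3G21690 in TPR1-GFP (46.9, with AT1G47530 at 36.4) and AT1G47530 in Col-0 (42.1, with AT2G38330 at 27.9). AT1G47530 was thus first or next to first in each genotype. The lowest level was that of AT2G04050 in the sid2-1 line (0.198 CPM per kilobase), DTX1 in the eds1-2 line (0), AT1G71870 in TPR1-GFP (0.318) and DTX1 in Col-0 (0.0073). Mean levels peaked in the sid2-1 line for 5 members, in the eds1-2 line for 13, in TPR1-GFP for 13 and in Col-0 for 4. They were lowest in the sid2-1 line for 3 members, in the eds1-2 line for 6, in TPR1-GFP for 10 and in Col-0 for 16. The same counts over all genes are not given here, so these only describe the members. DTX1 and AT2G04050 are included, and both are listed only through the genotype where they are highest. Genes were called when edgeR's quasi-likelihood test gave a Benjamini-Hochberg adjusted p under 0.05 over all 18877 genes, and every adjusted p and standard error (SE) printed here is from that fit to all 12 libraries unless another setting is named. By this test 33 of the 35 members were called in at least 1 of the 6 comparisons of genotypes, as were 76.1% of all genes tested. AT3G23550 and AT2G04100 were called in all 6, as were 0.519% of all genes, though 3 of the calls of AT2G04100 and 1 of AT3G23550 were lost without 1 or another library, as given for each gene. AT5G17700 and AT5G52050 (DTX50) were called in none. The deposited table lists no gene under a lowest sum of counts, and DTX1 and AT2G04050 reach that sum only with the genotype where they are highest, so that they had to differ between genotypes to be listed. The counts of members given below include both, and among the 33 others 16 were higher and 9 lower in TPR1-GFP than in Col-0, 17 and 4 in the sid2-1 line than in Col-0, and 11 and 2 in the eds1-2 line than in Col-0. Against TPR1-GFP these 33 had 10 higher and 3 lower in the sid2-1 line, and 11 and 11 in the eds1-2 line. In the sid2-1 line against the eds1-2 line they had 10 and 7. Of the 2 members called in no comparison, AT5G17700 had an unadjusted p under 0.05 in 1 comparison (lowest 0.0198) and AT5G52050 in 0 (lowest 0.0732), and DESeq2 called neither, with adjusted p-values of 0.0732 and 0.125 at the lowest.

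**Figure D1:**
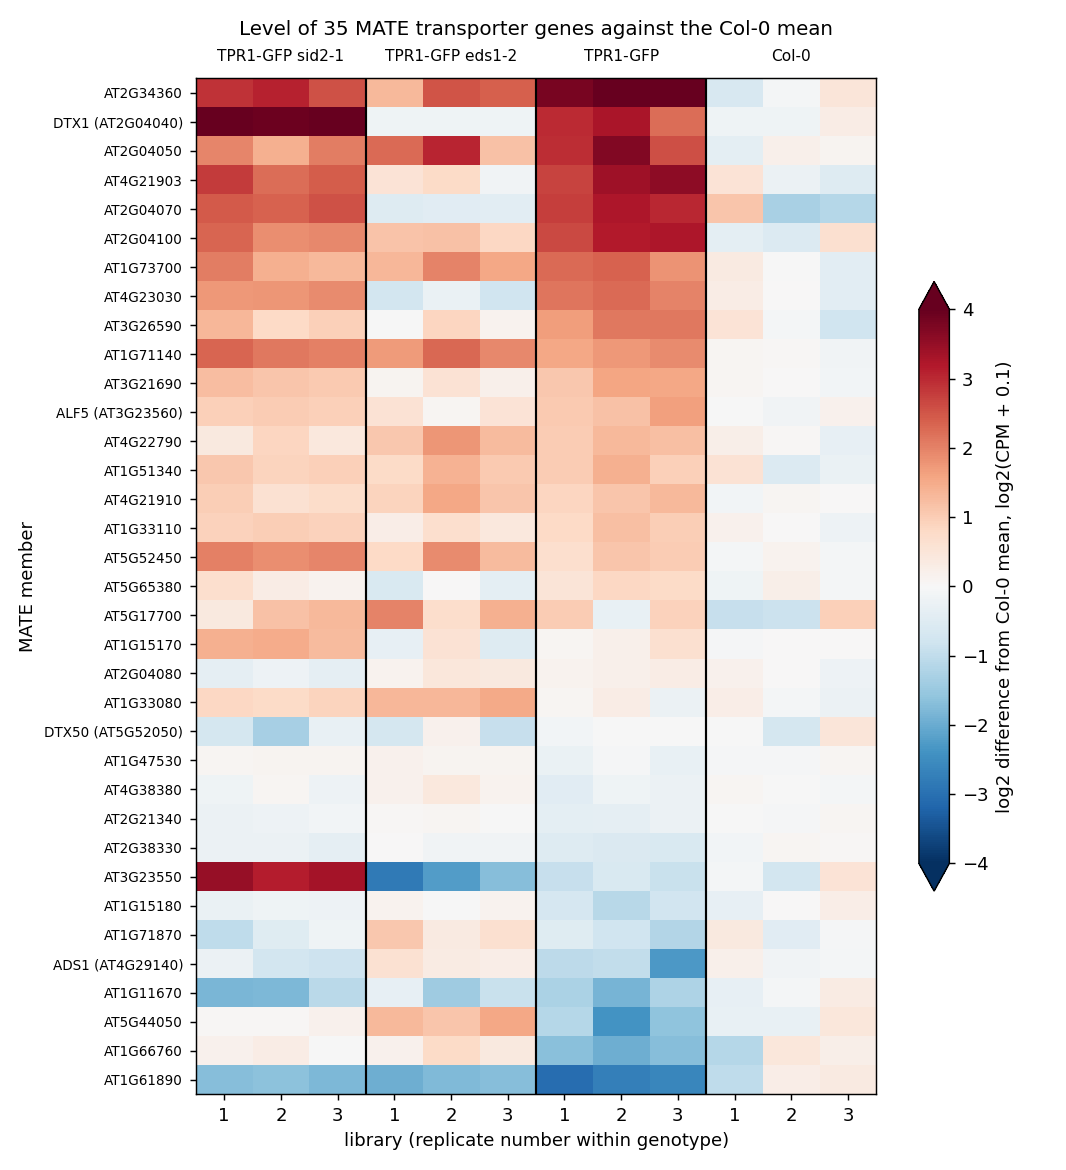
Level of each of the 35 MATE genes (rows) in each of the 12 libraries (columns, by genotype), as the difference of log2(CPM + 0.1) from the Col-0 mean, with colours cut at 4 in either direction. Rows follow the fitted change between TPR1-GFP and Col-0, with AT2G34360 at the top and AT1G61890 at the bottom, and the row of AT3G23550 is dark red in the 3 libraries of the sid2-1 line, at 70.7 to 88.3 CPM, and blue in the 3 of the eds1-2 line, at 1.01 to 2.34 CPM.

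The comparison of TPR1-GFP with Col-0 asks what the transgene line changes in an untreated leaf. Of the 35 MATE genes 18 were higher in TPR1-GFP (51.4%) and 9 were lower (25.7%), against 27.5% and 26.4% of all 18877 genes (53.9% in either direction). The median log2 change over the members was 0.72, against 0.01 over all genes. These shares depend on the scaling. With none beyond the library total, 54.3% of members and 44.2% of all genes were higher, and 20% of members and 16.4% of all genes were lower. The largest rises were those of AT2G34360, DTX1, AT2G04050, AT4G21903, AT2G04070 and AT2G04100, 4 of which lie in the chromosome 2 array. Of those 4, DTX1 and AT2G04050 had to differ between genotypes to be listed. ALF5 rose and ADS1 fell, and the largest falls were those of AT1G61890, AT1G66760, AT5G44050 and AT1G11670. Members called and changed at least 2-fold numbered 16 higher and 5 lower of 35, against 12% and 10.1% of all genes. The 13 genes in arrays gave 8 higher, with DTX1 and AT2G04050 among them, and 2 lower, and the 22 others 10 and 7.

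The eds1-2 line was set against TPR1-GFP, where both carry the transgene and the labels give eds1-2 as the difference. TPR1 itself was also lower in the eds1-2 line, and the mutation, the level of TPR1 and the line cannot be told apart. Here 11 members were higher (31.4%) and 12 lower (34.3%), against 25.2% and 27.7% of all genes (52.9% in either direction), which is near the background. With no scaling beyond the library total, 28.6% of members and 18.7% of all genes were higher, and 37.1% and 38.8% were lower. The median log2 change was 0.10 for the members and −0.03 for all genes. DTX1, AT2G04070, AT4G21903, AT4G23030, AT2G34360 and AT2G04100 fell the most, and AT5G44050, AT1G66760, ADS1 and AT1G71870 rose the most. The comparison shares the 3 TPR1-GFP libraries with the one before, which enter the 2 with opposite sign. Array genes gave 2 higher and 7 lower of 13, with DTX1 among the 7, and the others 9 and 5 of 22.

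For the sid2-1 line against TPR1-GFP the labels give sid2-1 as the difference, and TPR1 was again lower in the double line, so the same limit holds. Of the 35 genes 11 were higher (31.4%) and 3 lower (8.57%), against 9.7% and 7.14% of all genes. With no scaling beyond the library total, 25.7% of members and 7.49% of all genes were higher, and 14.3% and 12.1% were lower. Their median log2 change was −0.07, against 0.00 for all genes. AT3G23550 stood far above the rest of the higher genes, and AT1G66760, AT5G44050, DTX1, AT1G61890 and AT1G15170 came next. The calls of DTX1, AT1G61890 and AT1G15170 were lost without 1 or another library, as given for each gene. AT2G34360, AT2G04100 and AT2G04080 were lower. These counts rest on few libraries, since only 6 of the 14 calls were kept with each library left out in turn. The higher count fell to 6 without TPR1-GFP replicate 2 and 7 without TPR1-GFP replicate 3. It was 7 without sid2-1 line replicate 1 and 5 without sid2-1 line replicate 2. Over all genes the higher count fell from 1832 to 727, 854, 937 and 936 in the same order. The fall is thus not particular to the members.

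Set directly against each other, the 2 double lines differed in 18 of the 35 genes. The sid2-1 line was higher in 11 (31.4%) and lower in 7 (20%), against 19.5% and 14.9% of all genes (24.7% and 10.6% with no scaling beyond the library total, where members were at 34.3% and 17.1%), with a median log2 difference of −0.04 for members and 0.00 for all genes. DTX1, AT3G23550, AT2G04070, AT4G23030 and AT4G21903 led the higher genes, and AT1G71870, AT5G44050 and ADS1 the lower. Of the 18 calls 9 were kept with each library left out in turn, and the lower count fell to 4 without sid2-1 line replicate 2. Over all genes the lower count fell from 2813 to 1777 without that library. This comparison shares no library with that of TPR1-GFP and Col-0, but both come from 1 fit of all 12 libraries with a shared estimate of the spread. The 2 lists of calls are therefore not fully independent. The genes called higher in both numbered 9, which is 50% of the 18 and 81.8% of the 11, where over all genes the overlap was 48.5% and 68.3%. Those 9 were DTX1, AT2G04070, AT2G04100, ALF5, AT1G33110, AT3G21690, AT4G21903, AT4G23030 and AT5G65380. DTX1 had to differ between genotypes to be listed, as had AT2G04050 among the 18. Called lower in both were AT2G21340, ADS1 and AT5G44050, which is 33.3% of the 9 and 42.9% of the 7, with 36.2% and 64.1% over all genes. Of these genes AT2G04100, ALF5, AT1G33110, AT5G65380, AT2G21340 and ADS1 lost the call between the double lines without 1 or another library, AT2G21340 without any of 8 of the 12 (adjusted p 0.0548 to 0.114).

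Against Col-0 the sid2-1 line had 19 members higher (54.3%) and 4 lower (11.4%), where 22.1% and 19.9% of all genes were called (42.1% in either direction), and the median log2 change was 0.94 against 0.00. Same-numbered libraries of these 2 genotypes correlated weakly in their deviations from the genotype means (0.172, 0.22 and 0.309), and no label ties a number to an experiment. With the replicate number as a block the lower count was 3, without AT2G04080, and 19.2% of all genes were lower. With no scaling beyond the library total 62.9% of members and 33% of all genes were higher and 5.71% and 10.1% lower. The eds1-2 line had 12 members higher (34.3%) and 2 lower (5.71%), where 9.48% and 8.02% of all genes were called (12% and 4.97% with no scaling, where members were at 37.1% and 5.71%), and the median log2 change was 0.41 against −0.05. AT1G71140, AT1G73700, AT1G51340, AT4G21910, AT5G52450, AT2G34360 and AT2G04050 were among those higher than Col-0 in each transgenic genotype, and AT1G61890 was lower than Col-0 in each. The call of AT1G51340 in the eds1-2 line was lost without eds1-2 line replicate 2 (adjusted p 0.0501) and with only the 2 genotypes in the fit (adjusted p 0.0602). The 3 comparisons share the Col-0 libraries. The lower count of the sid2-1 line fell to 2 without Col-0 replicate 2 and without sid2-1 line replicate 3. Over all genes it was 3453 and 3294 in these runs, against 3762 with all libraries.

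**Figure D2:**
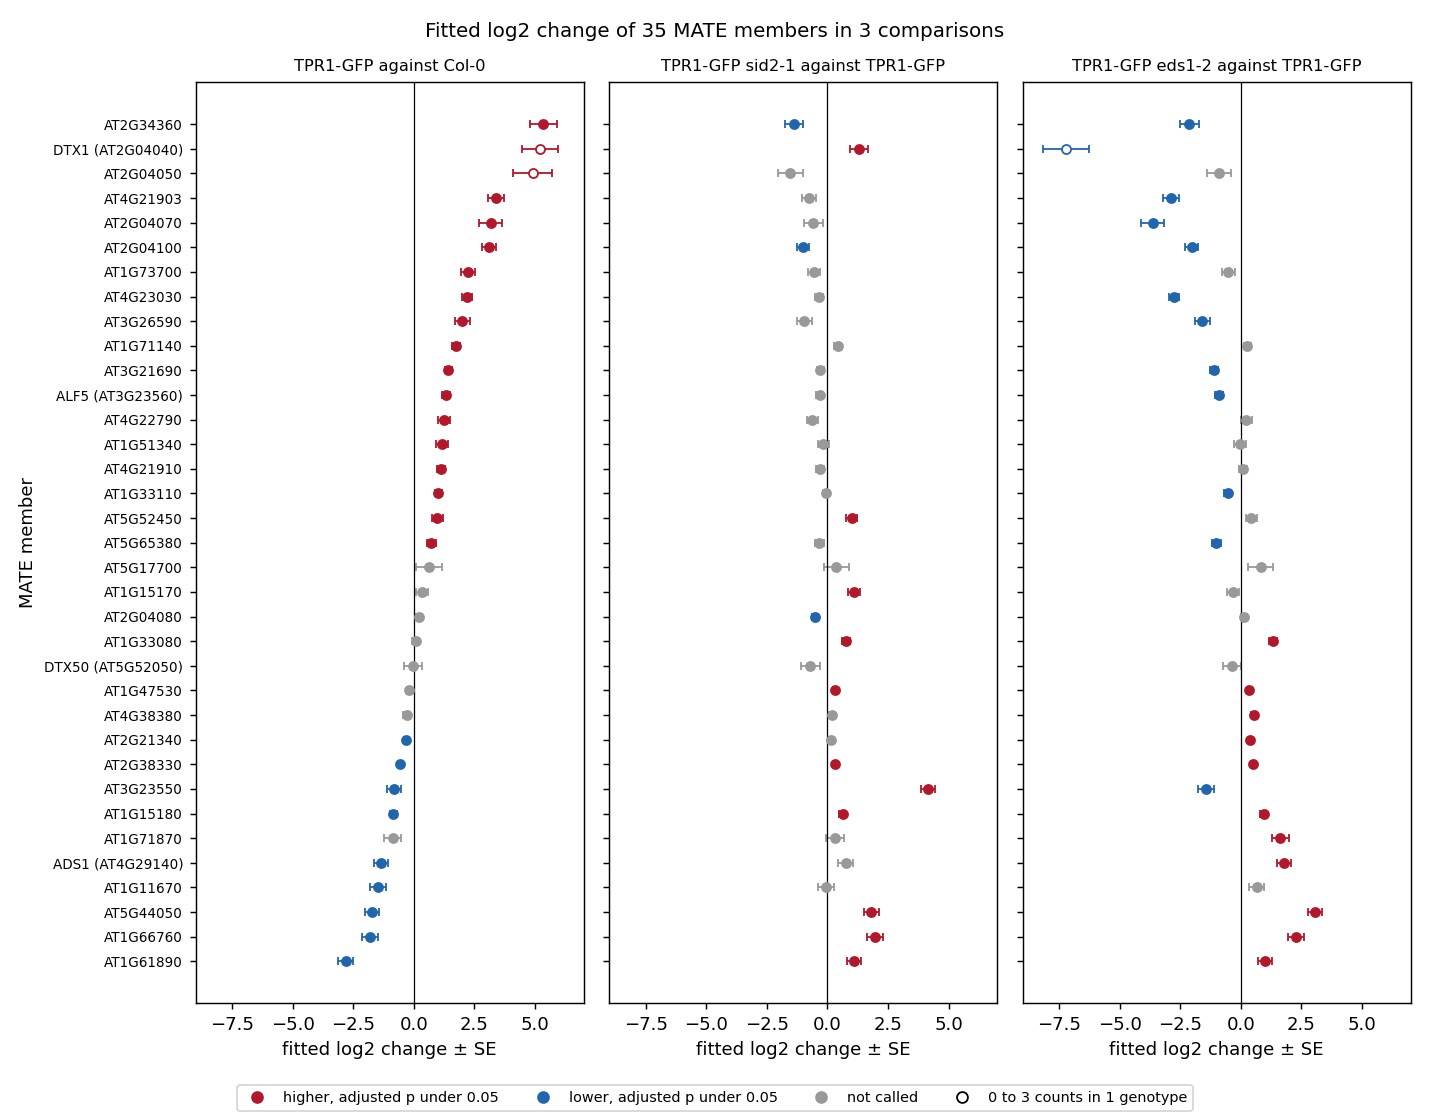
Fitted log2 change with its SE (bars) of the 35 MATE genes in 3 comparisons, coloured by call at an adjusted p under 0.05, with open points where 1 genotype had 0 to 3 counts. The points in the left panel run from 5.34 for AT2G34360 to −2.82 for AT1G61890, AT3G23550 stands alone at 4.15 in the middle panel, and in the right panel AT5G44050 is highest at 3.06.

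In the chromosome 2 array the 5 neighbours differed in level and in pattern. DTX1 had 2.21, 1.61 and 1.79 CPM in the sid2-1 line, 0, 0 and 0 in the eds1-2 line, 0.791, 1.0 and 0.438 in TPR1-GFP and 0, 0 and 0.0404 in Col-0. Its summed counts were 136 in the sid2-1 line, 0 in the eds1-2 line, 68 in TPR1-GFP and 1 in Col-0. Without the sid2-1 line it would have 69 counts, under the lowest sum in the table, so its folds are a description and not an independent test. All 6 libraries of the sid2-1 line and TPR1-GFP held it, and of the other 6 a single Col-0 library held 1 read. The ratio of TPR1-GFP to Col-0 was 50.2 with a 95% counting interval of 8.71 to 2012, and that of the sid2-1 line to Col-0 was 119.6 with an interval of 21.1 to 4760. Both rest on the 1 read of Col-0 replicate 3. Without that library the fitted log2 changes over Col-0 were 8.5 in the sid2-1 line and 7.20 in TPR1-GFP, against 6.51 and 5.21 with all libraries, and against 0 counts such a fitted value is no bound. With a floor of 3 counts over 3 libraries, DTX1 was at least 16.6-fold lower in the eds1-2 line than in TPR1-GFP. It was at least 39.5-fold higher in the sid2-1 line than in the eds1-2 line. Floor and interval cover counting error only. Between the sid2-1 line and TPR1-GFP it was 2.51-fold higher (log2 change 1.30, SE 0.36, adjusted p = 0.0372), a call lost without any library of the sid2-1 line or any library of TPR1-GFP (adjusted p 0.0613 to 0.114) and with the replicate block (adjusted p 0.057). DTX1 overlaps AT2G04039 by 297 bases on the other strand, and that gene averaged 59.2 CPM in the sid2-1 line, 70.2 in the eds1-2 line, 53.2 in TPR1-GFP and 60.7 in Col-0. Its level was thus highest in the genotype where DTX1 had no count.

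AT2G04050, next to DTX1, had 0.402, 0.248 and 0.439 CPM in the sid2-1 line, 0.529, 0.98 and 0.191 in the eds1-2 line, 0.898, 1.58 and 0.677 in TPR1-GFP and 0, 0.0497 and 0.0404 in Col-0. Its summed counts were 27, 37, 97 and 2 in that order, and the Col-0 libraries lay below all others. Ratios to Col-0 were 11.9 (95% counting interval 2.98 to 103) for the sid2-1 line, 18.7 (4.82 to 160.1) for the eds1-2 line and 35.8 (9.65 to 299.9) for TPR1-GFP. Without TPR1-GFP the gene would have 66 counts, under the lowest sum in the table, so these ratios too are a description. Without eds1-2 line replicate 2 the log2 change of that line over Col-0 was 3.34, against 4.0 with all libraries. Unlike DTX1, the gene was detected in all 3 libraries of the eds1-2 line, and its level there did not pass the test against TPR1-GFP (adjusted p = 0.153). AT2G04070 had 5.88, 5.57 and 6.32 CPM in the sid2-1 line, 0.674, 0.713 and 0.715 in the eds1-2 line, 7.4, 10.3 and 8.76 in TPR1-GFP and 2.25, 0.348 and 0.404 in Col-0. The sid2-1 line and TPR1-GFP lay above all libraries of the other genotypes, and the eds1-2 line lay within the range of Col-0. It was 8.82-fold higher in TPR1-GFP than in Col-0 (log2 change 3.17, SE 0.47, adjusted p = 0.000217) and 12.6-fold lower in the eds1-2 line than in TPR1-GFP (log2 change −3.65, SE 0.49, adjusted p = 0.000119). Between the double lines it was 8.45-fold higher in the sid2-1 line (log2 change 3.07, SE 0.49, adjusted p = 0.000753). Col-0 replicate 1 held 2.25 CPM, well above the other Col-0 libraries, and without it the log2 change of TPR1-GFP over Col-0 was 4.53 (adjusted p = 1.12e-06).

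AT2G04100, the outermost gene of the array, had 6.83, 4.95 and 5.13 CPM in the sid2-1 line, 2.98, 3.03 and 2.34 in the eds1-2 line, 8.62, 12.5 and 12.9 in TPR1-GFP and 0.95, 0.845 and 2.06 in Col-0. Its 4 genotypes did not overlap, with TPR1-GFP highest, the sid2-1 line next, then the eds1-2 line and Col-0. It rose 8.83-fold in TPR1-GFP over Col-0 (log2 change 3.11, SE 0.30, adjusted p = 1.49e-05) and fell 4.08-fold in the eds1-2 line from TPR1-GFP (log2 change −2.03, SE 0.28, adjusted p = 0.000117). Its level in the sid2-1 line was 2.01-fold lower than in TPR1-GFP (log2 change −1.01, SE 0.26, adjusted p = 0.0225), a call lost without sid2-1 line replicate 2 or 3 or TPR1-GFP replicate 2 or 3 (adjusted p 0.0726 to 0.0888). The eds1-2 line was 2.17-fold above Col-0 (log2 change 1.08, SE 0.32, adjusted p = 0.0349), a call lost without any library of the eds1-2 line or Col-0 replicate 1 or 2 (adjusted p 0.0518 to 0.115) and with only the 2 genotypes in the fit (adjusted p 0.104), and with the replicate block (adjusted p 0.0519). Between the double lines it was 2.03-fold higher in the sid2-1 line (log2 change 1.01, SE 0.28, adjusted p = 0.0157), a call lost without sid2-1 line replicate 1 or eds1-2 line replicate 3 (adjusted p 0.065 to 0.0707). AT2G04080 had 29.9, 33.4 and 30 CPM in the sid2-1 line, 42.3, 53 and 50.9 in the eds1-2 line, 42.5, 43.9 and 47.5 in TPR1-GFP and 43.2, 38.6 and 33.5 in Col-0. Of the 5 it was the least variable, and its largest differences were a 1.57-fold lower level in the sid2-1 line than in the eds1-2 line (log2 change −0.65, SE 0.11, adjusted p = 0.00116) and a 1.43-fold lower level there than in TPR1-GFP (log2 change −0.52, SE 0.11, adjusted p = 0.011). TPR1-GFP and Col-0 overlapped (adjusted p = 0.121). The sid2-1 line was 1.24-fold below Col-0 (log2 change −0.30, SE 0.11, adjusted p = 0.0477), a call lost with the replicate block (adjusted p 0.0618) and without any of 9 of the 12 libraries (adjusted p 0.0525 to 0.169), with no scaling beyond the library total (adjusted p 0.398) and with only the 2 genotypes in the fit (adjusted p 0.0652).

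**Figure D3:**
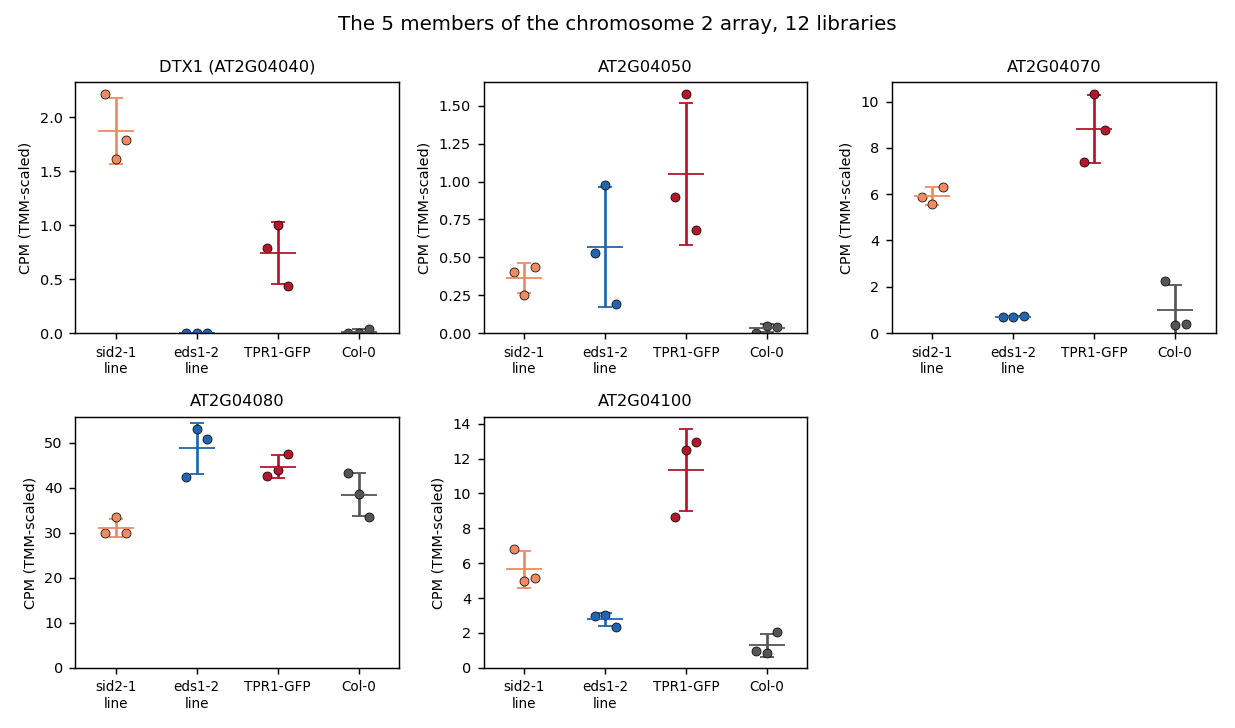
CPM of the 5 genes of the chromosome 2 array in every library (points), with mean and SD (bars) of the 3 libraries of each genotype. DTX1 is at 0 in the 3 libraries of the eds1-2 line and at 1.61 to 2.21 in the sid2-1 line, while AT2G04080 stays between 29.9 and 53.0 in all 12 libraries.

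The neighbours AT3G23550 and ALF5 on chromosome 3, with coding sequences 86.8% identical and no shared stretch of 50 bases, went apart. AT3G23550 had 88.3, 70.7 and 79.6 CPM in the sid2-1 line, 1.01, 1.6 and 2.34 in the eds1-2 line, 4.06, 5.1 and 4.22 in TPR1-GFP and 7.4, 4.72 and 11.4 in Col-0. The sid2-1 line stood above every other library by a wide margin and the eds1-2 line below every other library. It was 17.8-fold higher in the sid2-1 line than in TPR1-GFP (log2 change 4.15, SE 0.29, adjusted p = 4.56e-05), 48.2-fold higher than in the eds1-2 line (log2 change 5.59, SE 0.33, adjusted p = 9.31e-07) and 10.1-fold higher than in Col-0 (log2 change 3.33, SE 0.28, adjusted p = 1.33e-05). The eds1-2 line was 2.7-fold lower than TPR1-GFP (log2 change −1.44, SE 0.34, adjusted p = 0.00414) and 4.76-fold lower than Col-0 (log2 change −2.26, SE 0.33, adjusted p = 0.00101). In TPR1-GFP it was 1.76-fold lower than in Col-0, with libraries that overlap (log2 change −0.82, SE 0.28, adjusted p = 0.0293), a call lost without TPR1-GFP replicate 1 or 3 or Col-0 replicate 3 (adjusted p 0.0776 to 0.175), with no scaling beyond the library total (adjusted p 0.0999) and with only the 2 genotypes in the fit (adjusted p 0.0543). AT3G23550 took 8.24 to 9.48% of the summed MATE CPM in the sid2-1 line, 0.141 to 0.31% in the eds1-2 line, 0.486 to 0.594% in TPR1-GFP and 0.8 to 1.9% in Col-0. It overlaps AT3G23540 on the other strand by 69 bases, and that gene averaged 26 CPM in the sid2-1 line, 19.8 in the eds1-2 line, 32 in TPR1-GFP and 20.1 in Col-0.

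ALF5 had 17.1, 18 and 17.3 CPM in the sid2-1 line, 13.2, 9.22 and 12.9 in the eds1-2 line, 18.4, 19.9 and 27.4 in TPR1-GFP and 8.65, 7.9 and 9.82 in Col-0. The TPR1-GFP libraries lay above those of the other genotypes, and the eds1-2 line overlapped Col-0. ALF5 rose 2.49-fold in TPR1-GFP over Col-0 (log2 change 1.31, SE 0.17, adjusted p = 8.21e-05) and was 1.86-fold lower in the eds1-2 line than in TPR1-GFP (log2 change −0.90, SE 0.17, adjusted p = 0.000897). In the sid2-1 line it was 1.99-fold higher than in Col-0 (log2 change 0.99, SE 0.17, adjusted p = 0.000967), and its difference from TPR1-GFP did not pass the test (log2 change −0.33, adjusted p = 0.185).

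The remaining pairs of neighbours also differed within themselves. AT4G21903 had 10.1, 6.9 and 7.87 CPM in the sid2-1 line, 2.07, 2.41 and 1.24 in the eds1-2 line, 9.45, 15.4 and 17.6 in TPR1-GFP and 2.05, 1.14 and 0.929 in Col-0, and its neighbour AT4G21910 had 109.8, 84.1 and 91.3 CPM in the sid2-1 line, 102, 161 and 120.5 in the eds1-2 line, 101.3, 119 and 137 in TPR1-GFP and 51, 58.9 and 55.8 in Col-0. In AT4G21903 the eds1-2 line overlapped Col-0, and in AT4G21910 it held the highest library of all. AT4G21903 was 10.3-fold higher in TPR1-GFP than in Col-0 (log2 change 3.38, SE 0.34, adjusted p = 1.91e-05) and 7.44-fold lower in the eds1-2 line than in TPR1-GFP (log2 change −2.89, SE 0.32, adjusted p = 3.53e-05). AT4G21910 rose 2.15-fold in TPR1-GFP over Col-0 (log2 change 1.11, SE 0.17, adjusted p = 0.000239) and 2.32-fold in the eds1-2 line over Col-0 (log2 change 1.21, SE 0.17, adjusted p = 0.000667), and its eds1-2 line and TPR1-GFP libraries overlapped. AT1G15170 had 10.6, 11.1 and 9.39 CPM in the sid2-1 line, 3.08, 5.88 and 2.67 in the eds1-2 line, 4.1, 4.44 and 6.13 in TPR1-GFP and 3.75, 3.93 and 3.96 in Col-0. The sid2-1 line held the 3 highest values, 2.67-fold over Col-0 (log2 change 1.41, SE 0.25, adjusted p = 0.00122) and 2.12-fold over TPR1-GFP (log2 change 1.08, SE 0.25, adjusted p = 0.0138), a call lost without sid2-1 line replicate 2 or TPR1-GFP replicate 2 (adjusted p 0.0534 to 0.0638). No call was made among the eds1-2 line, TPR1-GFP and Col-0 for this gene, which overlaps the non-coding gene AT1G15175 by 245 bases.

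AT1G15180 had 29.4, 31.8 and 31.1 CPM in the sid2-1 line, 39.1, 35.1 and 39.8 in the eds1-2 line, 22.3, 16.4 and 20.8 in TPR1-GFP and 28.2, 36.3 and 42.8 in Col-0. TPR1-GFP held the 3 lowest values of this gene, 1.8-fold below Col-0 (log2 change −0.85, SE 0.15, adjusted p = 0.000519), and the eds1-2 line was 1.92-fold above TPR1-GFP (log2 change 0.94, SE 0.15, adjusted p = 0.000282). The sid2-1 line was 1.55-fold above TPR1-GFP (log2 change 0.63, SE 0.15, adjusted p = 0.015), a call lost without sid2-1 line replicate 2 or TPR1-GFP replicate 2 (adjusted p 0.0539 to 0.0661). AT1G33080 had 12.7, 12.2 and 13.4 CPM in the sid2-1 line, 17.9, 18 and 20.4 in the eds1-2 line, 7.55, 8.77 and 6.01 in TPR1-GFP and 8.55, 6.71 and 6.06 in Col-0, and AT1G33110 had 49.2, 51.1 and 49.5 CPM in the sid2-1 line, 31.4, 41.4 and 34.6 in the eds1-2 line, 45.5, 59.7 and 51.7 in TPR1-GFP and 29.2, 26.4 and 22.3 in Col-0. For AT1G33080 both double lines lay above all libraries of TPR1-GFP and Col-0, while AT1G33110 was highest in TPR1-GFP and the sid2-1 line. AT1G33080 rose 2.52-fold in the eds1-2 line over TPR1-GFP (log2 change 1.33, SE 0.15, adjusted p = 3.64e-05) and 1.71-fold in the sid2-1 line over TPR1-GFP (log2 change 0.77, SE 0.15, adjusted p = 0.00728). AT1G33110 rose 2.02-fold in TPR1-GFP over Col-0 (log2 change 1.01, SE 0.13, adjusted p = 8.44e-05) and was 1.46-fold lower in the eds1-2 line than in TPR1-GFP (log2 change −0.55, SE 0.13, adjusted p = 0.0041).

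**Figure D4:**
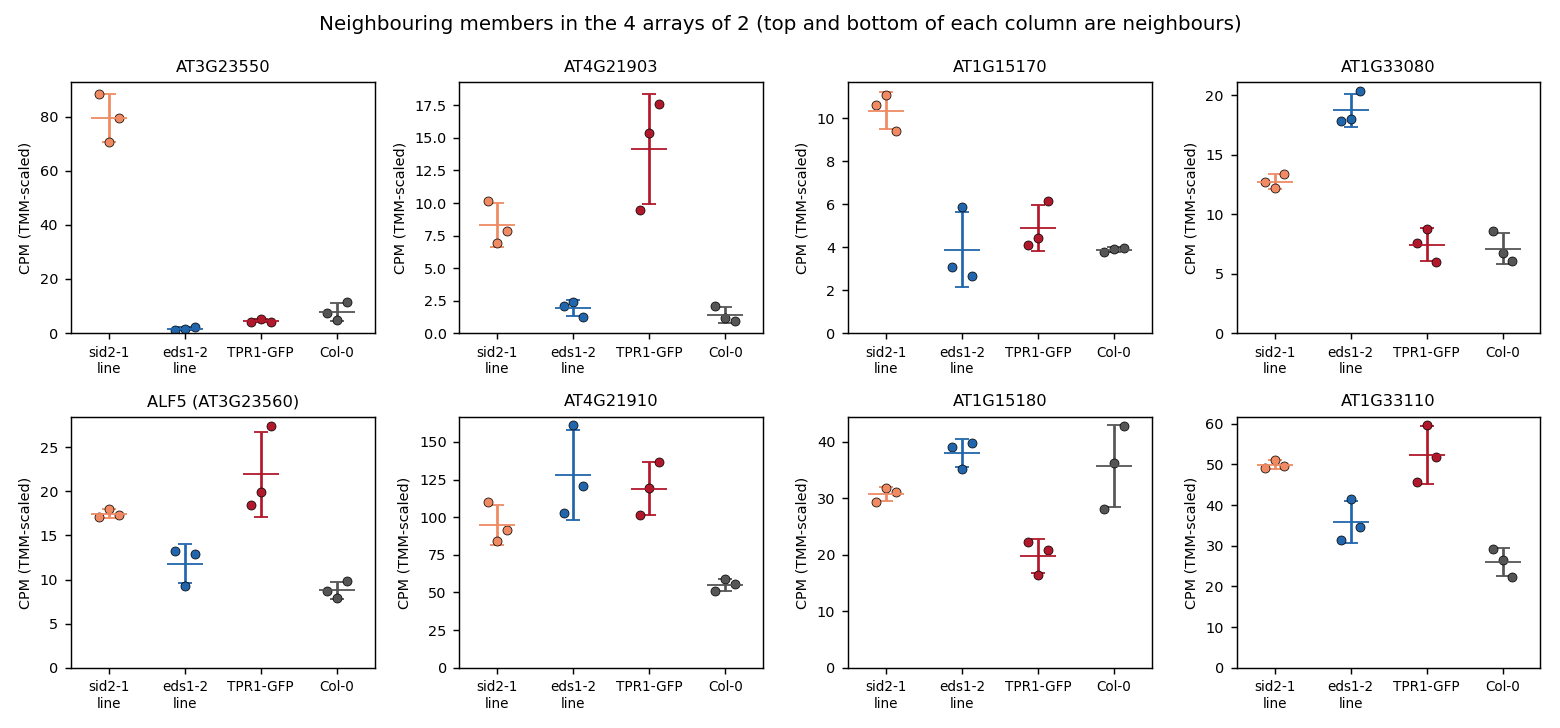
CPM of the 4 pairs of neighbouring MATE genes in every library (points), with mean and SD (bars) of each genotype, neighbours one above the other and each panel on its own scale from 0. AT3G23550 reaches 70.7 to 88.3 in the sid2-1 line and at most 11.4 elsewhere, while ALF5 in the panel under it is highest in TPR1-GFP at 18.4 to 27.4.

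ADS1 and AT5G52050 (DTX50) are among the 4 members with 1 coding exon. ADS1 had 3.77, 2.64 and 2.47 CPM in the sid2-1 line, 6.83, 5.66 and 5.43 in the eds1-2 line, 2.12, 2.21 and 0.836 in TPR1-GFP and 5.2, 4.03 and 4.24 in Col-0. TPR1-GFP held the 3 lowest values and the eds1-2 line the 3 highest. ADS1 was 2.61-fold lower in TPR1-GFP than in Col-0 (log2 change −1.36, SE 0.30, adjusted p = 0.00257) and 3.47-fold higher in the eds1-2 line than in TPR1-GFP (log2 change 1.77, SE 0.30, adjusted p = 0.00046). Between the double lines ADS1 was 2.02-fold lower in the sid2-1 line (log2 change −1.02, SE 0.29, adjusted p = 0.0179), a call lost without sid2-1 line replicate 2 or 3 or eds1-2 line replicate 1 (adjusted p 0.0629 to 0.0669). AT5G52050 (DTX50) had 1.41, 0.867 and 1.89 CPM in the sid2-1 line, 1.4, 2.67 and 1.19 in the eds1-2 line, 2.16, 2.35 and 2.35 in TPR1-GFP and 2.35, 1.39 and 3.31 in Col-0, and its adjusted p-values in the 6 comparisons ran from 0.132 to 0.917. AT4G23030 had 8.99, 9.21 and 9.89 CPM in the sid2-1 line, 1.54, 2.18 and 1.48 in the eds1-2 line, 11.9, 13.1 and 10.6 in TPR1-GFP and 3.25, 2.68 and 1.94 in Col-0. Its sid2-1 line and TPR1-GFP libraries all lay above those of the other genotypes, and the eds1-2 line overlapped Col-0 (adjusted p = 0.0822). AT4G23030 rose 4.53-fold in TPR1-GFP over Col-0 (log2 change 2.19, SE 0.19, adjusted p = 8.35e-06), and fell 6.85-fold in the eds1-2 line from TPR1-GFP (log2 change −2.77, SE 0.20, adjusted p = 2.16e-06). Its sid2-1 line was 5.4-fold above the eds1-2 line (log2 change 2.43, SE 0.20, adjusted p = 6.63e-06). AT4G22790 had 2.26, 3.18 and 2.3 CPM in the sid2-1 line, 3.66, 6.01 and 4.24 in the eds1-2 line, 3.49, 4.33 and 4.06 in TPR1-GFP and 2.0, 1.74 and 1.33 in Col-0. It was 2.34-fold higher in TPR1-GFP than in Col-0 (log2 change 1.23, SE 0.24, adjusted p = 0.00123) and 2.74-fold higher in the eds1-2 line than in Col-0 (log2 change 1.46, SE 0.24, adjusted p = 0.00201). Its eds1-2 line libraries overlapped those of TPR1-GFP.

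Among the members outside arrays, AT2G34360 had the largest fitted change of all in TPR1-GFP. It had 1.05, 1.24 and 0.811 CPM in the sid2-1 line, 0.289, 0.802 and 0.715 in the eds1-2 line, 2.08, 2.86 and 3.11 in TPR1-GFP and 0, 0.0497 and 0.121 in Col-0. The Col-0 libraries lay below the rest, at 4 counts in all, and the TPR1-GFP libraries above the rest. Levels were 47.1-fold higher in TPR1-GFP than in Col-0 (log2 change 5.34, SE 0.56, adjusted p = 2.22e-05), and 4.46-fold lower in the eds1-2 line than in TPR1-GFP (log2 change −2.14, SE 0.39, adjusted p = 0.000809). In the sid2-1 line it was 2.59-fold lower than in TPR1-GFP (log2 change −1.38, SE 0.36, adjusted p = 0.0259), a call lost without any library of the sid2-1 line or TPR1-GFP replicate 2 or 3 (adjusted p 0.0626 to 0.0891). The size of the changes against Col-0 rests on few counts, and without Col-0 replicate 3 the log2 change was 5.10 in the sid2-1 line, 4.34 in the eds1-2 line and 6.48 in TPR1-GFP, against 3.96, 3.20 and 5.34 with all libraries. AT3G26590 had 31.6, 21.8 and 24.3 CPM in the sid2-1 line, 12.6, 23.1 and 14 in the eds1-2 line, 40.8, 54.4 and 54.4 in TPR1-GFP and 18.5, 12.1 and 7.27 in Col-0. It was 3.95-fold higher in TPR1-GFP than in Col-0 (log2 change 1.99, SE 0.32, adjusted p = 0.000363), 3.01-fold lower in the eds1-2 line than in TPR1-GFP (log2 change −1.59, SE 0.31, adjusted p = 0.00135), and the eds1-2 line overlapped Col-0. AT3G21690 had 90.9, 83.7 and 80.8 CPM in the sid2-1 line, 41.6, 57.6 and 44.7 in the eds1-2 line, 81.6, 116 and 114 in TPR1-GFP and 41, 39.6 and 35.7 in Col-0. Its sid2-1 line and TPR1-GFP libraries stood above all others. It was 2.68-fold higher in TPR1-GFP than in Col-0 (log2 change 1.42, SE 0.15, adjusted p = 2.36e-05) and 2.16-fold lower in the eds1-2 line than in TPR1-GFP (log2 change −1.11, SE 0.15, adjusted p = 0.000102). AT5G65380 had 56.2, 43.7 and 38.7 CPM in the sid2-1 line, 23.1, 36 and 27.2 in the eds1-2 line, 51, 62.8 and 60.8 in TPR1-GFP and 31.2, 41.6 and 33.4 in Col-0. The eds1-2 line was 2.02-fold lower than TPR1-GFP (log2 change −1.02, SE 0.18, adjusted p = 0.000731) and overlapped Col-0, over which TPR1-GFP was 1.64-fold higher (log2 change 0.72, SE 0.18, adjusted p = 0.00576).

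A further 4 members were high in all 3 transgenic genotypes. AT1G71140 had 58.7, 51.3 and 47.5 CPM in the sid2-1 line, 38.4, 57.4 and 44.2 in the eds1-2 line, 34.4, 38.8 and 43.4 in TPR1-GFP and 12.3, 12.1 and 10.7 in Col-0. No transgenic library came near the Col-0 range, and the gene was 4.49-fold higher in the sid2-1 line (log2 change 2.17, SE 0.15, adjusted p = 4.57e-06), 4.0-fold higher in the eds1-2 line (log2 change 2.00, SE 0.15, adjusted p = 9.44e-06) and 3.33-fold higher in TPR1-GFP (log2 change 1.74, SE 0.15, adjusted p = 8.62e-06) than in Col-0. AT1G73700 had 7.84, 5.08 and 4.63 CPM in the sid2-1 line, 4.77, 7.57 and 5.53 in the eds1-2 line, 9.2, 9.71 and 6.61 in TPR1-GFP and 2.35, 1.79 and 1.33 in Col-0, with Col-0 below all others. Its rise over Col-0 was 3.21-fold in the sid2-1 line (log2 change 1.68, SE 0.29, adjusted p = 0.000882), 3.26-fold in the eds1-2 line (log2 change 1.72, SE 0.29, adjusted p = 0.002) and 4.66-fold in TPR1-GFP (log2 change 2.23, SE 0.28, adjusted p = 7.15e-05). AT1G51340 had 16.3, 14.3 and 14.8 CPM in the sid2-1 line, 13.1, 20.2 and 15.7 in the eds1-2 line, 15.4, 20.4 and 14.8 in TPR1-GFP and 11.4, 5.12 and 6.34 in Col-0. Here Col-0 was also lowest, with a 2.22-fold higher level in TPR1-GFP (log2 change 1.16, SE 0.26, adjusted p = 0.00282). AT5G52450 had 43.8, 39.2 and 42 CPM in the sid2-1 line, 18.6, 40.2 and 25.6 in the eds1-2 line, 17, 23.5 and 21.9 in TPR1-GFP and 10.2, 11.7 and 10.2 in Col-0. The sid2-1 line was 3.89-fold above Col-0 (log2 change 1.96, SE 0.23, adjusted p = 0.0001) and 2.0-fold above TPR1-GFP (log2 change 1.00, SE 0.22, adjusted p = 0.0126), and TPR1-GFP was 1.94-fold above Col-0 (log2 change 0.96, SE 0.23, adjusted p = 0.00443).

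The members that fell in TPR1-GFP lie mostly outside arrays. AT1G61890 had 8.09, 8.46 and 7.56 CPM in the sid2-1 line, 6.69, 7.62 and 8.01 in the eds1-2 line, 3.09, 3.9 and 4.22 in TPR1-GFP and 12.9, 32 and 34.1 in Col-0. TPR1-GFP held the 3 lowest values, both double lines came next, and Col-0 was highest but spread widely, with replicate 1 below the other replicates. The call of the sid2-1 line over TPR1-GFP was lost without any library of either (adjusted p 0.0583 to 0.0869) and in the authors' deposited comparison (adjusted p 0.0859). That of the eds1-2 line over TPR1-GFP was lost without TPR1-GFP replicate 1 (adjusted p 0.056) and in the authors' deposited comparison (adjusted p 0.0731). AT1G61890 was 7.05-fold lower in TPR1-GFP than in Col-0 (log2 change −2.82, SE 0.30, adjusted p = 2.83e-05), and 3.27-fold and 3.54-fold lower in the sid2-1 line (log2 change −1.71, SE 0.28, adjusted p = 0.00083) and the eds1-2 line (log2 change −1.82, SE 0.29, adjusted p = 0.00156). AT1G66760 had 16.7, 18.2 and 14.6 CPM in the sid2-1 line, 16.9, 25.5 and 19.4 in the eds1-2 line, 4.6, 3.75 and 4.46 in TPR1-GFP and 6.7, 20.5 and 17.4 in Col-0. Again TPR1-GFP was below all other libraries and Col-0 replicate 1 was low. It was 3.48-fold lower in TPR1-GFP than in Col-0 (log2 change −1.80, SE 0.33, adjusted p = 0.000852), and the sid2-1 line was 3.86-fold (log2 change 1.95, SE 0.33, adjusted p = 0.00384) and the eds1-2 line 4.83-fold (log2 change 2.28, SE 0.33, adjusted p = 0.000198) higher than TPR1-GFP. AT5G44050 had 4.52, 4.5 and 4.86 CPM in the sid2-1 line, 10.9, 9.4 and 12.8 in the eds1-2 line, 1.9, 0.745 and 1.35 in TPR1-GFP and 3.5, 3.53 and 6.02 in Col-0. TPR1-GFP was lowest, the eds1-2 line highest, and the sid2-1 line overlapped Col-0. It was 3.26-fold lower in TPR1-GFP than in Col-0 (log2 change −1.73, SE 0.31, adjusted p = 0.000644), 8.27-fold higher in the eds1-2 line than in TPR1-GFP (log2 change 3.06, SE 0.30, adjusted p = 1.56e-05) and 3.47-fold higher in the sid2-1 line than in TPR1-GFP (log2 change 1.81, SE 0.31, adjusted p = 0.00348). The eds1-2 line was also 2.54-fold above Col-0 (log2 change 1.33, SE 0.28, adjusted p = 0.00669).

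AT1G11670 had 1.56, 1.57 and 2.67 CPM in the sid2-1 line, 4.52, 2.09 and 3.05 in the eds1-2 line, 2.3, 1.52 and 2.39 in TPR1-GFP and 4.55, 5.47 and 7.15 in Col-0. It was 2.77-fold lower in TPR1-GFP than in Col-0 (log2 change −1.48, SE 0.32, adjusted p = 0.00213) and 2.96-fold lower in the sid2-1 line than in Col-0 (log2 change −1.55, SE 0.32, adjusted p = 0.00284), and neither double line passed the test against TPR1-GFP. AT1G71870 had 0.553, 0.826 and 1.05 CPM in the sid2-1 line, 2.65, 1.56 and 1.95 in the eds1-2 line, 0.827, 0.659 and 0.478 in TPR1-GFP and 1.6, 0.845 and 1.17 in Col-0. Its eds1-2 line held the highest value and all 3 lay above the other transgenic libraries, 3.14-fold over TPR1-GFP (log2 change 1.63, SE 0.34, adjusted p = 0.00182). AT2G38330 and AT2G21340, 2 of the genes with more than 10 coding exons, changed little but with a narrow spread. AT2G38330 had 41.4, 41.8 and 38.5 CPM in the sid2-1 line, 49.3, 44.7 and 44.8 in the eds1-2 line, 34.6, 32.6 and 32 in TPR1-GFP and 45, 51.6 and 50.3 in Col-0, and it was 1.48-fold lower in TPR1-GFP than in Col-0 (log2 change −0.57, SE 0.08, adjusted p = 0.000165). AT2G21340 had 48, 49.8 and 52.2 CPM in the sid2-1 line, 58.9, 59.9 and 56 in the eds1-2 line, 42.8, 44.6 and 48.3 in TPR1-GFP and 55.6, 54.5 and 60 in Col-0, and it was 1.25-fold lower in TPR1-GFP than in Col-0 (log2 change −0.33, SE 0.08, adjusted p = 0.00405), a call lost with no scaling beyond the library total (adjusted p 0.428). Between the double lines it was 1.17-fold lower in the sid2-1 line (log2 change −0.22, SE 0.08, adjusted p = 0.0449), a call lost without any of 8 of the 12 libraries, with no scaling beyond the library total (adjusted p 0.187), with only the 2 genotypes in the fit (adjusted p 0.0658) and with the replicate block (adjusted p 0.0523).

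Little or no change was called for the last 3. AT1G47530 had 100.6, 102 and 104 CPM in the sid2-1 line, 107, 102 and 103 in the eds1-2 line, 79.2, 91.5 and 77.6 in TPR1-GFP and 93, 92.7 and 100.9 in Col-0. Its eds1-2 line was 1.26-fold above TPR1-GFP (log2 change 0.33, SE 0.08, adjusted p = 0.00564), a call lost with no scaling beyond the library total (adjusted p 0.106). AT4G38380 had 4.82, 5.78 and 4.8 CPM in the sid2-1 line, 6.16, 7.35 and 6.1 in the eds1-2 line, 3.95, 4.81 and 4.7 in TPR1-GFP and 5.8, 5.47 and 5.21 in Col-0, and its single call was the eds1-2 line over TPR1-GFP, 1.46-fold (log2 change 0.54, SE 0.14, adjusted p = 0.00657). AT5G17700 had 9.75, 16.7 and 18.5 CPM in the sid2-1 line, 29.6, 12.2 and 20.1 in the eds1-2 line, 15.2, 5.99 and 14.1 in TPR1-GFP and 3.85, 4.03 and 14.4 in Col-0. Replicates of 1 genotype differed so much here that all pairs of genotypes overlapped, and the adjusted p-values ran from 0.0859 to 0.657.

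Listed were genes of the flavonoid, hydroxycinnamic acid amide and abscisic acid pathways, whose products MATE carriers are known to move. Genes of iron and aluminium response, and ABCG carriers, another family of carriers, were listed too. All lists were chosen with earlier results of these data known. The flavonoid list was made for the MATE carriers TT12 and FFT, and neither is among the members described here. Of 12 flavonoid genes 10 were in the table and tested, and they differed most in the eds1-2 line, where all 10 were higher than in TPR1-GFP, against 25.2% of all genes, and 7 were higher than in Col-0, against 9.48%. DFR, LDOX and GSTF12 of these reach the lowest gene sum of the table only with the eds1-2 line, so they had to differ to be listed. TT4, the chalcone synthase that starts the pathway, had 4.27, 4.46 and 6.32 CPM in the sid2-1 line, 145, 145 and 145 in the eds1-2 line, 6.32, 1.63 and 1.31 in TPR1-GFP and 38.8, 24.4 and 87.8 in Col-0. DFR, the dihydroflavonol reductase of the anthocyanin branch, averaged 0.257 CPM in the sid2-1 line, 76.0 in the eds1-2 line, 0.310 in TPR1-GFP and 0.233 in Col-0. LDOX, the next enzyme, averaged 0.122, 50.9, 0.188 and 0.300 CPM in that order. Both are thus near 0 outside the eds1-2 line, and their log2 changes between the eds1-2 line and TPR1-GFP were 7.92 and 8.01. Of the 10, 3 were lower in TPR1-GFP than in Col-0, where 26.4% of all genes were, and 9 were lower in the sid2-1 line than in the eds1-2 line, where 14.9% were. Between the sid2-1 line and TPR1-GFP 0 of the 10 were called by edgeR, where the lowest adjusted p was 0.079 and 1 gene had an unadjusted p under 0.05, and DESeq2 called 0.

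Of 12 genes of iron and aluminium response, none of them for citrate synthesis, 7 were tested. TPR1-GFP had 4 of them higher than Col-0, namely FRO2 and FRO3, ferric reductases, OPT3, a transporter of the phloem that acts in iron signalling, and STOP1, a transcription factor of aluminium tolerance, with log2 changes of 1.86, 1.84, 1.69 and 0.36, and 27.5% of all genes were higher. OPT3 averaged 108 CPM in the sid2-1 line, 86.2 in the eds1-2 line, 209 in TPR1-GFP and 64.9 in Col-0. In the eds1-2 line against TPR1-GFP 1 of the 7 was higher (FRO2) and 4 lower, where 52.9% of all genes were called in either direction, and in the sid2-1 line against TPR1-GFP OPT3 alone was called, lower by a log2 change of −0.96 (adjusted p = 0.0197). AACT1, the single listed gene of hydroxycinnamic acid amide synthesis, had 22.8, 27.2 and 29 CPM in the sid2-1 line, 0.144, 0.0445 and 0.0953 in the eds1-2 line, 0, 0.258 and 0 in TPR1-GFP and 0.200, 0 and 2.30 in Col-0. The sid2-1 line was above all other libraries, with log2 changes of 7.96 over TPR1-GFP, 8.06 over the eds1-2 line and 4.86 over Col-0. AACT1 too reaches the lowest gene sum of the table only with the sid2-1 line, so these are a description.

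Of 6 ABCG carriers 5 were tested, and 4 were higher in TPR1-GFP than in Col-0, where 27.5% of all genes were. ABCG33, among the 4, reaches the lowest gene sum of the table only with its highest genotype. In the eds1-2 line against TPR1-GFP 1 was higher and 3 were lower, where 25.2% and 27.7% of all genes were, and 3 were higher in the sid2-1 line than in the eds1-2 line, where 19.5% of all genes were. PEN3, a pump of defence compounds at the cell surface, averaged 1706 CPM in the sid2-1 line, 1018 in the eds1-2 line, 1614 in TPR1-GFP and 1170.4 in Col-0. ABCG40 averaged 20, 0.537, 9.19 and 2.85 CPM in that order, and it fell in the eds1-2 line from TPR1-GFP by a log2 change of −4.10 (adjusted p = 0.000938). In the sid2-1 line against TPR1-GFP ABCG34 alone was called, with a log2 change of 1.21 (adjusted p = 0.000218). Of 5 genes of abscisic acid synthesis 1 was higher (AAO3, an aldehyde oxidase) and 2 lower (NCED3, the cleavage enzyme that limits the pathway, and ABA2) in TPR1-GFP than in Col-0, a share near the 53.9% of all genes called there. In the eds1-2 line against TPR1-GFP 2 were higher and 2 lower, where 52.9% of all genes were called, and between the sid2-1 line and TPR1-GFP edgeR called 0 of the 5, with a lowest adjusted p of 0.116 and 2 at an unadjusted p under 0.05, and DESeq2 called 0.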

How the data were processed

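Polyadenylated leaf RNA was sequenced in 12 libraries. TopHat2, HTSeq and limma are named in the submitters' processing notes with the build TAIR10. Tool versions and the strand setting are not given in the sources used here. The deposited table, per the file headers, holds read counts per gene for each library, and the authors' log2 values and their log2 fold changes and adjusted p-values for 3 comparisons. The counts were analysed here, and the authors' deposited comparisons served only as an alternative. The lowest gene sum in the table is 101, and rarer transcripts are not analysed here. No column of per-sample values was left unmapped.

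The count model was that of edgeR 4.0.16 in R 4.3.3. After the filterByExpr filter and TMM scaling, the robust quasi-likelihood fit held genotype as its only term, with all 12 libraries in 1 fit and 6 contrasts. Benjamini-Hochberg adjustment ran over 18877 genes. The SE of a log2 change was taken as its absolute value over the root of F, and is no direct estimate of sampling error. CPM values use TMM-scaled totals, and folds are ratios of mean CPM. For a gene at 0 in 1 genotype the fold is a bound at 3 counts over its 3 libraries, and for 1 to 3 counts it is a count ratio with a 95% interval. The script was tested on simulated counts. Members, gene lists and tests were chosen with earlier results of these data known. The text gives values per library for every member, which covers the rule for named genes: members with a known role, the 5 called members with the largest change per direction and comparison, and the 3 highest and lowest per kilobase.

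The replicate numbers were checked for pairing. All 3 pairs of the sid2-1 line with Col-0 correlated above 0.1 (0.172, 0.22 and 0.309) in their deviations from the genotype means. No other comparison had all 3 pairs above 0.1. All 3 pairs of TPR1-GFP with Col-0 and of the sid2-1 line with TPR1-GFP were negative. The highest values were 0.356 and 0.355, for replicates 1 and 2 of the eds1-2 line with TPR1-GFP. Whether the numbers mark shared experiments is not settled by these values. Over all comparisons 8 of the 18 pairs were above 0.1. Alternatives were RLE, upper-quartile or no scaling, no filter or 1 CPM in 3 libraries, the replicate block, only the 2 genotypes compared, DESeq2 1.42.0 and each library left out. Locus codes were matched to RefSeq TAIR10.1 for gene models, coding identity (Biopython 1.88) and start regions. The files hold no coordinates, and none was converted.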

Additional observations from a re-analysis of the deposited data

How the results depend on the processing

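Of the 119 calls of a member in a comparison, none changed direction under any alternative run. All 119 were kept with RLE scaling, upper-quartile scaling, no filter and DESeq2, and 116 of 116 with the filter at 1 CPM. No scaling beyond the library total kept 111, the fit of only the 2 genotypes kept 109 of 116, and the table deposited by the authors kept 62 of 64 calls. With no scaling the median of all genes moved to 0.26 in TPR1-GFP against Col-0, −0.20 in the eds1-2 line against TPR1-GFP and 0.17 in the sid2-1 line against Col-0, and the sid2-1 line against TPR1-GFP had 9 members higher and 5 lower. Lower members in that comparison numbered 7 in the fit of only the 2 genotypes and 5 in the authors' deposited table, against 3. Of all genes 8.88% and 8.54% were lower there, against 7.14%, and with no scaling 7.49% were higher and 12.1% lower. Against Col-0, the sid2-1 line had 2 lower members with no scaling and 2 in the fit of only the 2 genotypes, against 4, and the eds1-2 line had 7 higher in that fit, against 12. The same shares over all genes were 10.1% and 17.8%, against 19.9%, and 6.24% in that fit, against 9.48%. In that fit 32 members were tested for the eds1-2 line against Col-0, and 2 of the 12, AT2G04050 and AT2G34360, were left out by the filter. Otherwise the cause was not tested.

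With each library left out, members higher and lower numbered 18 to 19 and 8 to 10 in TPR1-GFP against Col-0, and 5 to 12 and 1 to 6 in the sid2-1 line against TPR1-GFP. Over all genes the counts were 4257 to 5315 and 3991 to 5124, and 727 to 2045 and 445 to 1598, in the same order. Members numbered 10 to 13 and 12 to 15 in the eds1-2 line against TPR1-GFP, and 8 to 12 and 4 to 7 in the sid2-1 line against the eds1-2 line. Over all genes the counts were 3844 to 4809 and 4225 to 5314, and 2700 to 3910 and 1777 to 2959. Against Col-0 members numbered 18 to 20 and 2 to 4 in the sid2-1 line, and 10 to 12 and 2 to 3 in the eds1-2 line. Over all genes the counts were 3150 to 4336 and 2529 to 3950, and 1165 to 1820 and 841 to 1576. Lower members of the sid2-1 line against TPR1-GFP numbered 5 without Col-0 replicate 1, 6 without TPR1-GFP replicate 1, 5 without eds1-2 line replicate 2, and 1 without TPR1-GFP replicate 2 or 3 or sid2-1 line replicate 2 or 3. Over all genes the lower counts were 1539, 1598, 1504 and 445 to 798 in that order, against 1347 with all libraries. Against the eds1-2 line 4 members were lower without sid2-1 line replicate 2, and 1777 of all genes, against 2813 with all libraries. Calls kept with each library left out were 26 of 27 in TPR1-GFP against Col-0, 6 of 14 and 22 of 23 in the sid2-1 and eds1-2 lines against TPR1-GFP, 9 of 18 between the double lines, and 20 of 23 and 11 of 14 against Col-0.

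With the replicate number as a block, higher and lower members numbered 18 and 9, 10 and 3, 11 and 12, 12 and 6, 19 and 3, and 11 and 2 in the order TPR1-GFP against Col-0, the sid2-1 and eds1-2 lines against TPR1-GFP, the sid2-1 line against the eds1-2 line, and the sid2-1 and eds1-2 lines against Col-0. Of all genes 27.1% and 25.8%, 9.01% and 5.92%, 24.6% and 27.6%, 19.3% and 14.4%, 21.7% and 19.2%, and 8.74% and 7.11% were higher and lower in that order. The block kept 115 of the 119 calls. For the sid2-1 line against Col-0, where all 3 same-numbered pairs correlated above 0.1, the AT2G04080 call was lost under the block (adjusted p = 0.0618). In each other comparison at least 1 pair was under 0.1, though replicates 1 and 2 of the eds1-2 line with TPR1-GFP reached 0.356 and 0.355. Of the 12 libraries 7 correlated best with a library of the same number, and whether the numbers mark shared experiments is not settled. Depth limits DTX1 and AT2G04050 most, with 205 and 163 counts over all libraries, against a median of 3268 for the members.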
